A study of Mus musculus with 4 samples.

Results

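The 34 genes described here are expressed by macrophages and other leukocytes, and were followed in RNA-seq of the soleus, a postural hind limb muscle of the mouse. They were picked by gene symbol from the authors' table of normalized counts, in which each library's read counts are divided by its size factor. Among its 23420 genes, 33 were present under their own symbol and Spi1 only under its older symbol Sfpi1. Of the 34, 32 had a mean of at least 10 normalized counts and entered the tests, which ran on 13287 genes in all. Trem2 and Aif1 were below that limit.

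The libraries came from 4 mice of the C57BL/6 strain aged 10 weeks. Both muHuR-KO mice, 1-9 and 3-9, are labelled MyoDCre+;LoxP-/-. Both controls, 3-8 and 3-12, are labelled MyoDCre-;LoxP-/-. Where the labels say LoxP-/-, the study describes floxed alleles of Elavl1, the gene for the RNA-binding protein HuR, in every mouse, and only the knockout mice have the Cre recombinase under the MyoD promoter. MyoD is a factor of the muscle lineage, so the deletion was aimed at muscle cells and not at leukocytes. The RNA is that of whole muscle and holds every cell type in it.

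Macrophages are the most common leukocytes of resting skeletal muscle. They lie between the fibers and along vessels, clear debris through scavenger receptors and the complement protein C1q, bind antibodies through Fc receptors, and present peptides on MHC class II molecules. Their survival depends on the growth factor CSF1 and its receptor, and their identity on the transcription factor PU.1, which Spi1 encodes. After injury, monocytes that carry the chemokine receptor CCR2 enter the muscle and become macrophages.

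The libraries held between 13301715 reads in genes (control 3-12) and 33348893 (muHuR-KO 3-9). Elavl1 had 1350 normalized counts in control 3-8, 1190 in control 3-12, against 1210 in muHuR-KO 1-9 and 1205 in muHuR-KO 3-9. These counts cover the whole gene and check no genotype. Acta1, the skeletal actin of the fibers, reached between 637320 and 1225900 normalized counts. Macrophage markers such as Cd68 and Csf1r were detected in every library, whereas those of several other leukocytes were near 0. The 10 T cell genes summed to between 16.6 and 23.7 normalized counts a library, the 7 natural killer cell genes to between 8.51 and 18.6, and the 7 neutrophil genes in the table to between 8.51 and 26.7. No T cell, natural killer cell or neutrophil gene passed the limit of 10, and Mpo, a granule enzyme of neutrophils, was listed at 0 in all 4 libraries. Of the mast cell genes 5 of 6 passed the limit, with sums between 95.7 and 226 a library. Of the dendritic cell genes 4 of 8 passed it, with sums between 147 and 228. Macrophage genes were thus present together with mast cell and dendritic cell genes, and markers of T cells, natural killer cells and neutrophils added little.

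Per kilobase of exon and averaged over the libraries, Cd74 had the highest level, with 391 normalized counts per kb, followed by Lyz2 with 344. The C1q chains C1qa and C1qb stood at 152 each and C1qc at 88.8, with Csf1 between them at 89.5. At the other end were Msr1 with 2.70, Siglec1 with 1.88 and Trem2 with 0.836. The scavenger receptor Msr1 and the lectin Siglec1 were near the lower limit of what these libraries resolve.

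None of the 32 genes differed between muHuR-KO and both controls at an adjusted p under 0.05 in limma. The background was 0% of all genes in either direction, and 102 genes had an unadjusted p under 0.05, none of them among the 32. On the recovered reads, edgeR and DESeq2 also called 0 genes. The median log2 difference of the 32 genes was 0.25, beside -0.01 over all genes tested, and 24 of the 32 were positive. The smallest unadjusted p of the 32 was that of Mrc1 (0.0711, adjusted p = 0.9999 in limma). In bulk RNA, fewer cells of a type and less RNA per cell cannot be told apart, and this holds for every value given here.

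The median of 0.25 rested on 1 knockout mouse. Without muHuR-KO 1-9 it was -0.09, and without muHuR-KO 3-9 it was 0.75. Of the 32 genes, 3 (Mrc1, Fcgr2b and Ly86) had both muHuR-KO libraries above both controls, where 9.57% of all genes did. None had both below, where 13% of all genes did.

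Each control was then taken alone, which is how the study's table set its knockout mice against 1 control. The spread in these fits comes from the muHuR-KO pair, and the lone control is assumed to vary like it. Against control 3-8, 2 of the 32 genes rose, beside 9.69% of all genes, and 0 fell, beside 0.128% of all genes. They were Cd163 and Ptprc. After a correction for the GC content of each gene, 468 of all genes were higher and 339 lower, where 1287 and 17 had been, and 1 of the 32 rose. Against control 3-12, 0 of the 32 rose or fell, and the background was 0% in both directions. There, 630 genes had an unadjusted p under 0.05, of which 1 of the 32 was higher and 2 were lower. edgeR called 1 gene and DESeq2 called 4 higher and 5 lower genes in that comparison, none of them among the 32. The median of the 32 genes was 0.36 against control 3-8, with -0.04 over all genes, and 0.07 against control 3-12, with -0.03 over all genes. Both comparisons use the same muHuR-KO pair.

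**Figure D1:**
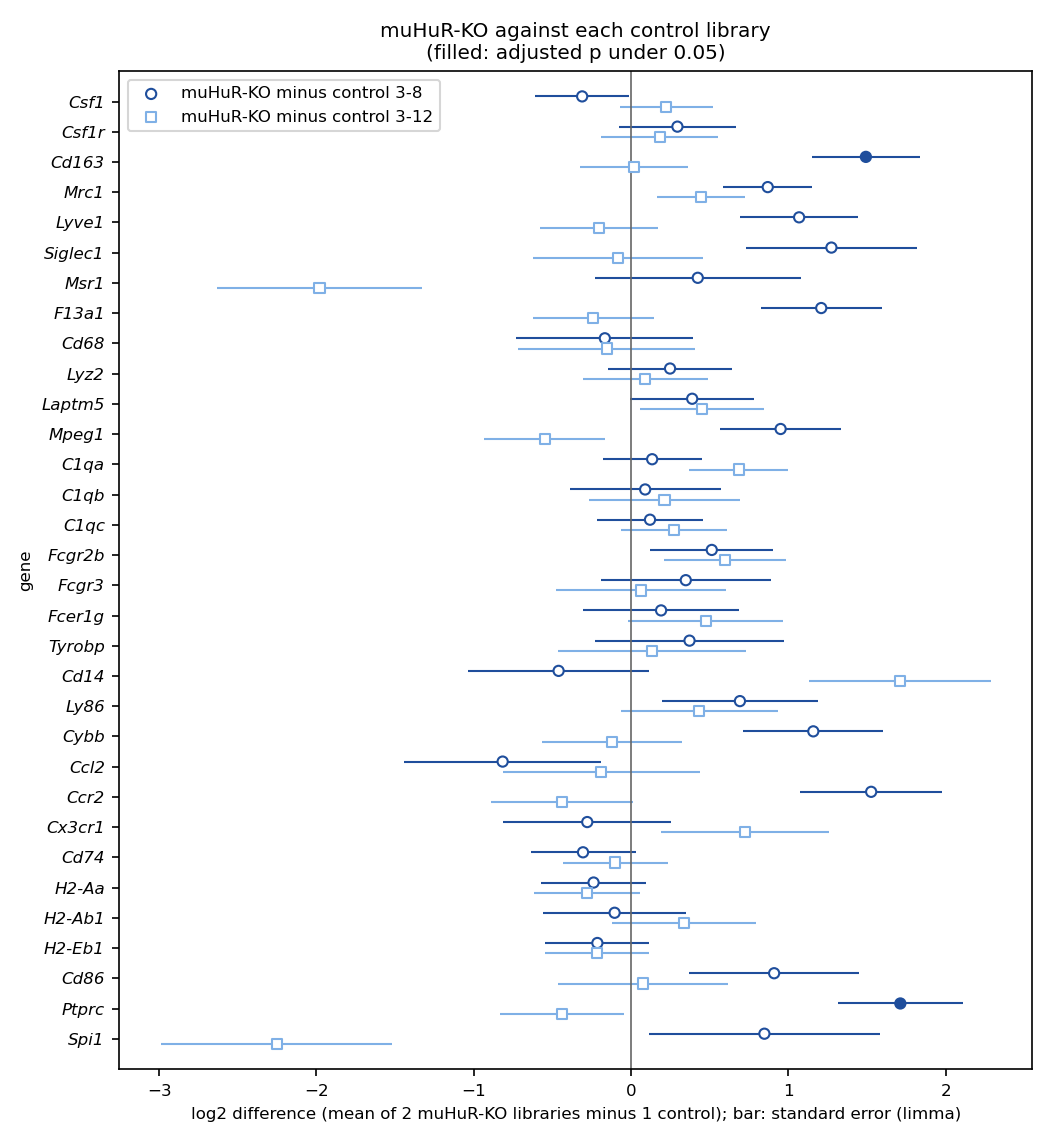
Log2 difference of the 2 muHuR-KO libraries from control 3-8 (circles) and from control 3-12 (squares) for the 32 tested genes, with the limma standard error as a bar and filled symbols for an adjusted p under 0.05. Only Cd163 and Ptprc against control 3-8 are filled. For Ptprc, Ccr2, F13a1, Lyve1, Mpeg1 and several other genes the 2 controls place the difference on opposite sides of 0.

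Csf1, the growth factor on which macrophages depend, had 565 normalized counts in control 3-8, 389.97 in control 3-12, against 571 in muHuR-KO 1-9 and 364 in muHuR-KO 3-9. Each genotype thus held 1 high and 1 low library, and the log2 difference from both controls was -0.04 (standard error 0.34). Its receptor gene Csf1r, a defining gene of the lineage, had 165 and 178 in controls 3-8 and 3-12, 276 in muHuR-KO 1-9 and 149 in muHuR-KO 3-9. The controls lay close together and between the muHuR-KO libraries, which differed 1.85-fold. Csf1r differed by 0.24 from both controls (standard error 0.36), less than the gap within the muHuR-KO pair. Cells other than macrophages can also make Csf1.

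Among the scavenger receptors and markers of perivascular macrophages, control 3-8 stood low. Cd163, which takes up haptoglobin and hemoglobin, had 55.7 normalized counts in control 3-8, 156 in control 3-12, against 193 in muHuR-KO 1-9 and 129.7 in muHuR-KO 3-9. The muHuR-KO libraries were above control 3-8 by 1.49 on the log2 scale (standard error 0.34, adjusted p = 0.0238 in limma). They enclosed control 3-12, from which the difference was 0.02 (standard error 0.34). Cd163 did not pass the threshold under DESeq2 (adjusted p = 0.0547), without a trend (0.0711), after a correction for exon length (0.1098) or without a filter on low values (0.294).

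F13a1, the clotting factor XIII subunit that resident macrophages express, had 93.7, 258, 303 and 157 in controls 3-8 and 3-12 and muHuR-KO 1-9 and 3-9. Lyve1, a hyaluronan receptor of vessel-associated macrophages and of lymphatic endothelium, had 77.1, 188, 219 and 121 in the same order. Both had the order of Cd163, with control 3-8 lowest and control 3-12 between the muHuR-KO libraries. Against control 3-8 the log2 differences were 1.21 for F13a1 (standard error 0.38, adjusted p = 0.0897 in limma) and 1.07 for Lyve1 (standard error 0.38, adjusted p = 0.127 in limma). Against control 3-12 they were -0.24 and -0.20.

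Mrc1, the mannose receptor, was 1 of the 3 genes with both muHuR-KO libraries on top. It had 208 normalized counts in control 3-8 and 279.6 in control 3-12, and 446 and 325 in muHuR-KO 1-9 and 3-9. The log2 difference from both controls was 0.66 (standard error 0.31), and after a correction for GC content the difference from control 3-8 went from 0.87 to 0.34.

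Siglec1 and Msr1 rested on few reads. Siglec1, a sialic acid receptor, had 6, 9, 21 and 22 reads in controls 3-8 and 3-12 and muHuR-KO 1-9 and 3-9, and 5.86, 16.6, 15.6 and 15.6 normalized counts. Only control 3-8 was low. Msr1, which binds modified lipoproteins, had 7, 22, 21 and 8 reads and 6.84, 40.5, 15.6 and 5.67 normalized counts. Its highest value was in the shallowest library, control 3-12, and the log2 difference from it was -1.98 (standard error 0.65, adjusted p = 0.891 in limma). As a group, these 6 genes summed to 447 normalized counts in control 3-8 and to 938, 1193 and 753 in control 3-12 and muHuR-KO 1-9 and 3-9. Their median log2 difference was 1.14 against control 3-8, with 6 of 6 positive and 1 past the threshold, and -0.14 against control 3-12, with 2 of 6 positive and none past it.

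Among the genes of the lysosome and of phagocyte killing, Cd68 and Lyz2 parted the muHuR-KO mice. Cd68, a lysosomal glycoprotein used as a macrophage stain, had 55.7 in control 3-8, 55.2 in control 3-12, against 83.8 in muHuR-KO 1-9 and 29.1 in muHuR-KO 3-9. Lyz2, the lysozyme of myeloid cells, had 388, 432, 681 and 311 in the same order. In both genes the controls were alike and the muHuR-KO libraries lay on either side of them, 2.88-fold apart for Cd68 and 2.19-fold apart for Lyz2. Reads that fit the near-identical Lyz1 as well may have been split or dropped, since their handling is not given in the sources used here.

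Laptm5, a lysosomal protein of leukocytes, had 123, 118, 224 and 116, so that only muHuR-KO 1-9 stood out. Mpeg1, the pore protein perforin-2, had 31.2, 90.1, 72.6 and 51.7, with the lowest level in control 3-8 and the highest in control 3-12. The log2 differences from both controls were -0.16 for Cd68, 0.17 for Lyz2, 0.42 for Laptm5 and 0.20 for Mpeg1, with standard errors from 0.38 to 0.53, and none passed the threshold.

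C1qa, C1qb and C1qc encode the 3 chains of C1q, which starts the classical complement pathway and is made by macrophages in most tissues. They lie next to each other on the minus strand of chromosome 4 of GRCm38, C1qa at 136895917 to 136898803, C1qc at 136889804 to 136893065 and C1qb at 136880129 to 136886187. To show letters that 2 of these neighbours share, a stretch of each promoter follows from RefSeq (GRCm38.p6), 5′ to 3′ on the gene's own strand. Capitals mark GAGGAA, a core motif that PU.1 binds, or its reverse complement TTCCTC. The C1qb stretch, chr4:136886201-136886280, ends 1 base before the RefSeq start of transcription. The C1qc stretch, chr4:136893075-136893154, covers bases -240 to -161 from its RefSeq start. That start lies inside the C1qc span given above, and the stretch lies outside that span.
C1qb: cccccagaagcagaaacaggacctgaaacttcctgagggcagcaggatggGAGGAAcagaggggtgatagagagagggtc
C1qc: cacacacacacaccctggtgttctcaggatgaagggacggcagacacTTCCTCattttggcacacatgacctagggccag

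RefSeq held promoters of 22 of the 34 genes, and 11 of the 22 (50%) had GAGGAA on either strand within 250 bases before to 50 bases after a start. Of 27025 genes with a promoter, 31.3% had it. A match of letters is not a binding site.

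C1qa had 162 normalized counts in control 3-8, 110 in control 3-12, against 209.8 in muHuR-KO 1-9 and 151 in muHuR-KO 3-9. C1qb had 154, 142, 264 and 102, and C1qc had 166, 149, 228 and 143. All 3 chains were highest in muHuR-KO 1-9, and control 3-8 was above muHuR-KO 3-9 in each. The log2 differences from both controls were 0.41, 0.15 and 0.20, with standard errors of 0.35, 0.46 and 0.34. The chains did not keep a fixed ratio: C1qa over C1qb was 1.05 and 0.779 in controls 3-8 and 3-12, and 0.795 and 1.48 in muHuR-KO 1-9 and 3-9. In control 3-12 it came from 60 and 77 reads.

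The Fc receptor genes and their signaling adaptors included Fcgr3, Fcer1g and Tyrobp, in which the muHuR-KO mice lay on either side of the controls. Fcgr3, an activating receptor for immunoglobulin G, had 52.7 in control 3-8, 64.4 in control 3-12, against 112 in muHuR-KO 1-9 and 40.4 in muHuR-KO 3-9. Fcer1g, the gamma chain that signals for it, had 67.4, 55.2, 119 and 49.6 in the same order. Tyrobp, the adaptor DAP12, had 18.6, 22.1, 39.3 and 14.9. Each was highest in muHuR-KO 1-9 and lowest in muHuR-KO 3-9, by 2.77-fold, 2.41-fold and 2.64-fold. The log2 differences from both controls were 0.21, 0.33 and 0.25, none past the threshold.

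Fcgr2b, the inhibitory receptor, had 48.8 and 46.0 in controls 3-8 and 3-12 and 84.5 and 58.1 in muHuR-KO 1-9 and 3-9. Here both muHuR-KO libraries were above both controls, with a log2 difference of 0.56 (standard error 0.38). Fcgr2b and Fcgr3 resemble each other in sequence, so that their reads may be partly shared. Trem2, a lipid receptor that signals through DAP12, had 5, 0, 10 and 6 reads in controls 3-8 and 3-12 and muHuR-KO 1-9 and 3-9. It was listed at 0 in the shallowest library, where 3 reads would be 5.52 normalized counts, and no difference was detectable at this depth.

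Cd14, the co-receptor for bacterial lipopolysaccharide, had 28.3 in control 3-8, 5.52 in control 3-12, against 28.9 in muHuR-KO 1-9 and 14.2 in muHuR-KO 3-9. The low value rested on 3 reads. The log2 difference of muHuR-KO was 1.71 from control 3-12 (standard error 0.58, adjusted p = 0.891 in limma) and -0.46 from control 3-8, so the direction depended on the control. Ly86, or MD-1, a partner of the Toll-like receptor homolog CD180, had 13.7, 16.6, 25.9 and 19.8. Both muHuR-KO libraries were above both controls, and the difference was 0.56 (standard error 0.48).

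Cybb, the membrane subunit of the phagocyte oxidase, had 24.4 in control 3-8, 60.7 in control 3-12, against 74.1 in muHuR-KO 1-9 and 41.8 in muHuR-KO 3-9. Control 3-12 was between the muHuR-KO libraries, as for Cd163. The log2 difference from control 3-8 was 1.16 (standard error 0.44, adjusted p = 0.163 in limma) and fell to 0.53 after the GC correction.

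The chemokine and chemokine receptor genes were all higher in muHuR-KO 1-9 than in muHuR-KO 3-9, but did not share an order of the controls. Ccl2, which draws monocytes into tissue, had 17.6, 11.0, 14.1 and 6.38 in controls 3-8 and 3-12 and muHuR-KO 1-9 and 3-9, and was the only 1 of the 32 genes with its highest level in control 3-8. Its receptor gene Ccr2 had 19.5, 79.1, 79.3 and 42.5, lowest in control 3-8 and equal in control 3-12 and muHuR-KO 1-9. The log2 difference of Ccr2 was 1.53 from control 3-8 (standard error 0.45, adjusted p = 0.0684 in limma) and -0.44 from control 3-12. Cx3cr1, the fractalkine receptor of patrolling monocytes and tissue macrophages, had 34.2, 16.6, 40.8 and 19.1. Ccr2 over Cx3cr1 was 0.571 in control 3-8 and between 1.95 and 4.78 in the other libraries. It came from 20 and 35 reads in control 3-8 and from 43 and 9 reads in control 3-12, where it was 4.78. Ccr2 has a GC content of 39.4% where Cx3cr1 has 50.3%, and the ratio was not tested.

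MHC class II genes lie in the H2 region of chromosome 17 and share a promoter element called the Y box, which NF-Y binds. It is shown for 2 of them from RefSeq (GRCm38.p6), 5′ to 3′ on the gene's strand, with CTGATTGG in capitals. Both stretches end 1 base before the start. That of H2-Aa, chr17:34287824-34287903, is on the minus strand, and that of H2-Eb1, chr17:34305787-34305866, on the plus strand.
H2-Aa: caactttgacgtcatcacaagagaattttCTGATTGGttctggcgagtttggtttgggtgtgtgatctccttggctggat
H2-Eb1: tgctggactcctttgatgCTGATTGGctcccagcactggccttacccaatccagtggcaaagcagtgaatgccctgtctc

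The motif began 51 bases before the start in H2-Aa and 62 bases before it in H2-Eb1. These were the 2 of 22 promoters with CTGATTGG on either strand (9.09%), beside 4.7% of 27025 genes.

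H2-Aa, a class II alpha chain gene, had 239 normalized counts in control 3-8, 246 in control 3-12, against 261 in muHuR-KO 1-9 and 157 in muHuR-KO 3-9. H2-Eb1, a beta chain gene, had 172.8, 172.9, 184 and 120.5. The controls and muHuR-KO 1-9 were nearly level in both genes, and muHuR-KO 3-9 was lower. The ratio of H2-Aa to H2-Eb1 was 1.38, 1.43, 1.42 and 1.31 in controls 3-8 and 3-12 and muHuR-KO 1-9 and 3-9, a narrower range than that of the C1q chains. The log2 differences from both controls were -0.26 for H2-Aa and -0.21 for H2-Eb1, with a standard error of 0.33 each.

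Cd74, the invariant chain that escorts class II molecules, had 737, 640, 808 and 440 in the same order of libraries. H2-Ab1, the other beta chain gene, had 200.2, 147, 291 and 119. Both were highest in muHuR-KO 1-9 and lowest in muHuR-KO 3-9, with log2 differences from both controls of -0.20 and 0.12. Cd86, a costimulatory ligand for T cells, was low, with 7.81, 14.7, 17.0 and 14.2 normalized counts from 8, 8, 23 and 20 reads. Of these 5 genes none passed the threshold, and 1 was positive against control 3-8 and 2 against control 3-12.

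Ptprc, or CD45, the surface phosphatase of all leukocytes, had 19.5 in control 3-8, 90.1 in control 3-12, against 79.3 in muHuR-KO 1-9 and 55.3 in muHuR-KO 3-9. Control 3-8 was lowest and control 3-12 highest, so the muHuR-KO libraries lay between the controls. The log2 difference was 1.71 from control 3-8 (standard error 0.40, adjusted p = 0.0248 in limma) and -0.44 from control 3-12 (standard error 0.40). Against control 3-8, Ptprc did not pass under DESeq2 (adjusted p = 0.150), and it was 0.83 after the GC correction (adjusted p = 0.246 in limma). Aif1, the actin-binding protein IBA1, had 9, 2, 13 and 4 reads, too few to test.

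Spi1, counted under Sfpi1, ran against most of the other genes. Reads per exon were not analysed here, so which transcripts the counts come from was not tested. It had 43.9 normalized counts in control 3-8, 384 in control 3-12, against 34.8 in muHuR-KO 1-9 and 181 in muHuR-KO 3-9, from 45, 209, 47 and 256 reads. The library that was highest for 26 of the 32 genes was the lowest for Spi1. The log2 difference of muHuR-KO was -0.70 from both controls (standard error 1.04), 0.85 from control 3-8 and -2.25 from control 3-12 (standard error 0.74, adjusted p = 0.891 in limma). After the GC correction the difference from control 3-12 was -2.34. That fit took nearly all of its spread from other genes (210.4 prior degrees of freedom, beside 8.34 without the correction). It called genes across the whole table, Spi1 among them, where limma without the correction called none.

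Spi1 lies on chromosome 2 of GRCm38 at 91082390 to 91115756, plus strand. Its neighbours Slc39a13, which ends before it at 91070417, and Mybpc3, which starts after it at 91118144, did not share its pattern. Slc39a13 had 452, 432, 488 and 359 in controls 3-8 and 3-12 and muHuR-KO 1-9 and 3-9, and Mybpc3 at most 2.84. Whether the counting used the strand is not given in the sources used here. Ikzf1, another transcription factor of blood cells, had 18.6, 116, 36.3 and 57.4, with the same 2 libraries high as Spi1.

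Across all 32 genes, muHuR-KO 1-9 had the highest level in 26 (81.25%), beside 21.2% of all genes tested. muHuR-KO 3-9 had the lowest level in 16 (50%), beside 18.3% of all genes, and the highest in 0. Control 3-8 was lowest in 11 (34.4%), beside 34.9% of all genes. The level in muHuR-KO 1-9 was above the mean of the other 3 libraries in 31 of 32 genes, with a median log2 difference of 0.76 beside 0.02 over all genes. Spi1 was the exception. In muHuR-KO 3-9 24 of 32 were below it, with a median of -0.33, and in control 3-12 16 were above and 16 below. By the mouse numbers in the labels, muHuR-KO 1-9 is the only library whose number begins with 1, the other 3 begin with 3, and what the first number stands for is not given, so it and the mouse cannot be told apart.

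None of the 32 passed the threshold in muHuR-KO 1-9, muHuR-KO 3-9 or control 3-12 against the other 3 libraries, where 0% of all genes did in either direction. At an unadjusted p under 0.05, limma gave 178, 49 and 310 genes, of which the 32 held 7, 1 and 3. In these 3 comparisons edgeR called 0 genes, and DESeq2 called 1, 0 and 2 genes, none of them among the 32. The 7 genes of muHuR-KO 1-9 were higher there, and were Csf1r, Lyz2, Laptm5, C1qb, Fcgr3, Fcer1g and H2-Ab1. They gained between 0.75 and 1.10 on the log2 scale without an adjusted p under 0.05.

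**Figure D2:**
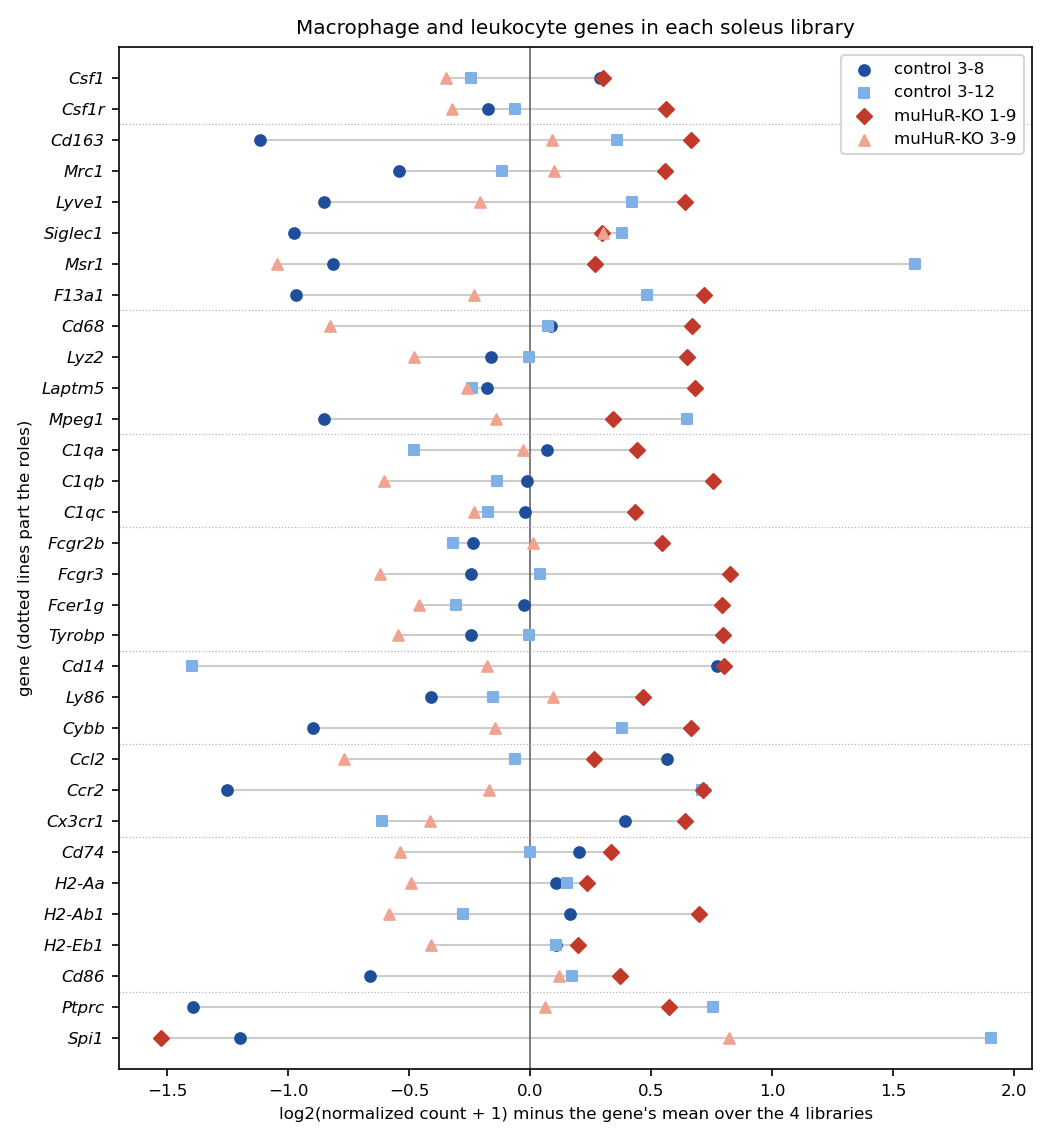
Log2(normalized count + 1) of the 32 tested genes in each library, less the gene's mean over the 4 libraries, ordered by role. Diamonds (muHuR-KO 1-9) are on the right in all genes but Spi1, triangles (muHuR-KO 3-9) are mostly left of 0, and circles (control 3-8) are far left for Cd163, Ccr2, Ptprc and Spi1.

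The gap between the muHuR-KO mice was larger than the median difference between the genotypes in each comparison. muHuR-KO 1-9 exceeded muHuR-KO 3-9 in 30 of the 32 genes, by a median of 0.86 on the log2 scale. Over all genes tested the median was -0.01 and the median absolute gap 0.23, and in 3.02% of all genes muHuR-KO 1-9 was above muHuR-KO 3-9 by 0.86 or more. The 2 genes with the opposite sign were Spi1 (-2.35) and Siglec1 (-0.002). The controls differed from each other less uniformly, with control 3-12 above control 3-8 in 19 of the 32 genes and a median of 0.13. muHuR-KO 1-9 alone was above control 3-8 by a median of 0.81 and above control 3-12 by 0.57. muHuR-KO 3-9 alone was below them, with medians of -0.18 and -0.47.

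**Figure D3:**
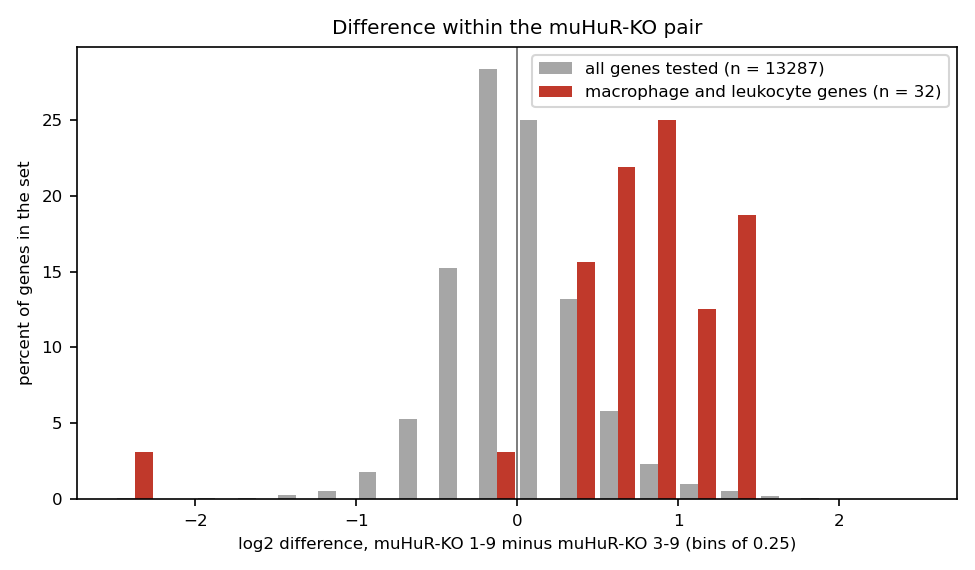
Distribution of the log2 difference between muHuR-KO 1-9 and muHuR-KO 3-9 over all 13287 genes tested (gray bars, centred on 0) and over the 32 macrophage and leukocyte genes (red bars), in bins of 0.25 and as a percent of each set. The red bars lie mostly between 0.25 and 1.5, and the bar at the far left is Spi1.

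Control 3-8 was the library in which some of these genes passed the threshold. Against the other 3 libraries, 4 of the 32 were lower (Cd163, Ptprc, F13a1 and Ccr2), beside 12.4% of all genes, and 0 were higher, beside 0.354% of all genes. Cd163 was lower by 1.49 (standard error 0.30, adjusted p = 0.00962 in limma) and Ptprc by 1.86 (adjusted p = 0.0105 in limma) on the log2 scale. The share of the 32 was thus close to that of all genes. In this comparison 1 library stands against a pool of both genotypes, whose spread it is assumed to share, so its p-values set that library apart and compare no groups of mice. The median difference of the 32 genes was -0.28. It was 0.04 without muHuR-KO 1-9, -0.45 without muHuR-KO 3-9 and -0.36 without control 3-12.

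Low levels in control 3-8 went with low GC content. With all genes split into 10 groups of rising GC content, control 3-8 lay below the other libraries in the GC-poorest group (median log2 difference -1.05) and above them in the GC-richest (median 0.36). GC content of the 32 genes ran from 38.4% (Msr1) to 59.5% (C1qa). The 16 genes at or under their median of 49.8% had a median difference of -0.98 in control 3-8, and the 16 genes above it 0.04. Pearson's r of GC content with this difference was 0.46 over the 32 genes (Spearman's rho 0.41), and 0.59 over the 13180 genes with a GC value. Genes of a library are not independent replicates, and all points share the same 4 libraries.

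Ptprc and Ccr2 have a GC content of 39.4% each, Cybb 42.4%, Lyve1 45.8%, F13a1 45.9% and Cd163 47.9%. After a loess correction for GC content, Cd163 kept its call in control 3-8, with a log2 difference of -1.34 from the other 3 libraries (adjusted p = 0.0307 in limma). The other 3 lost theirs, with differences of -0.96 for F13a1, -0.93 for Ptprc and -0.74 for Ccr2. Siglec1 (56.7%) and Spi1 (58.9%) were low in control 3-8 at a high GC content. What produced the GC trend of control 3-8, and its part in these values, was not tested. The muHuR-KO libraries had medians of 0.27 (1-9) and 0.24 (3-9) in the GC-poorest group of all genes, and of -0.21 and 0.07 in the GC-richest.

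**Figure D4:**
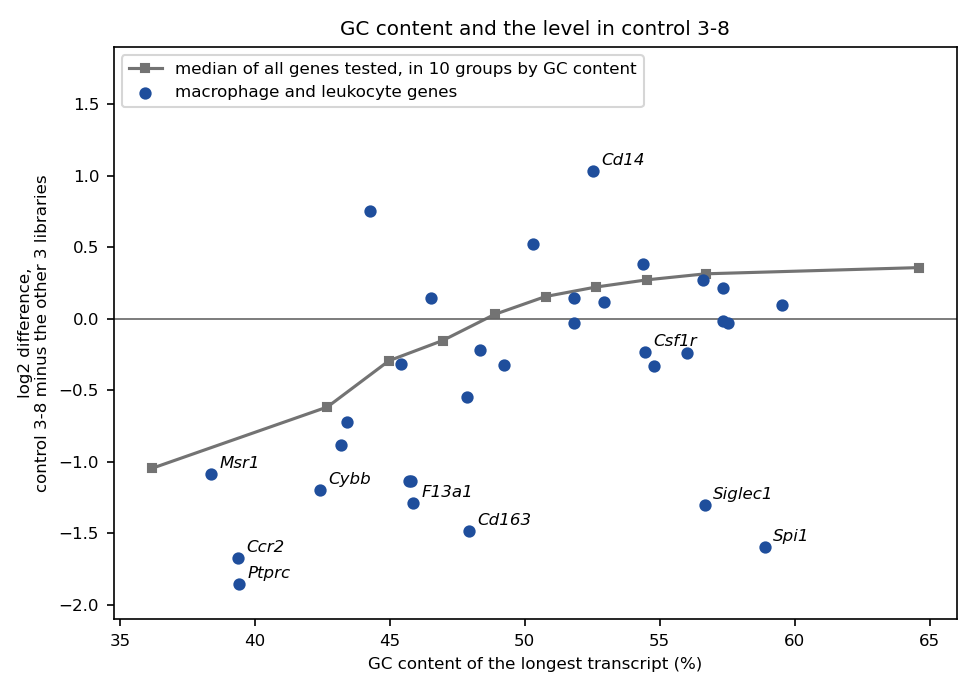
Log2 difference of control 3-8 from the other 3 libraries against the GC content of the longest transcript, for the 32 genes (points) and as medians of all genes tested in 10 groups of GC content (line). The line climbs from -1.05 to 0.36, and Ptprc, Ccr2, Cd163, F13a1, Siglec1 and Spi1 lie below it.

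Ratios between genes of macrophages were steady for some pairs and not for others. Lyz2 over Csf1r was nearly constant, at 2.35 and 2.42 in controls 3-8 and 3-12 and 2.47 and 2.09 in muHuR-KO 1-9 and 3-9. Cd163 over Cd68 was 1, 2.83, 2.31 and 4.46 in the same order. The highest ratio, in muHuR-KO 3-9, came from a low Cd68, and the lowest, in control 3-8, from a low Cd163. Cd68 had 30 reads in control 3-12 and 41 in muHuR-KO 3-9, and has a GC content of 52.9% where Cd163 has 47.9%. The ratios were not tested.

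Other genes of the same pathways were taken from 12 lists of 140 genes, of which 96 were tested. None passed the threshold against both controls or against control 3-12. Against control 3-8, 5 of the 96 rose, beside 9.69% of all genes, and none fell. The median of the 96 was 0.15. The 12 lists were less tied to muHuR-KO 1-9 than the 32 genes were, with a median difference from the other 3 libraries of 0.26 and 74 of 96 positive.

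C4b, the complement component that C1 cleaves, had 144, 464, 171 and 337 in controls 3-8 and 3-12 and muHuR-KO 1-9 and 3-9, high in the same 2 libraries as Spi1. Among lipid handling genes of phagocytes, 3 of 12 rose against control 3-8. Abca1, the cholesterol exporter, had 279, 911, 740 and 982, and Lpl, lipoprotein lipase, had 33388, 87777, 78493 and 69160. The third was Cd36, a fatty acid transporter, named after its values were seen, with 10003, 22975, 17420 and 20466. Muscle fibers and fat cells express Lpl and Cd36 as well. After the GC correction the log2 difference of Abca1 against control 3-8 went from 1.61 to 1.44 and still passed (adjusted p = 4.04e-05 in limma), and that of Lpl went from 1.14 to 0.62 and did not (adjusted p = 0.263 in limma).

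Of 10 resident macrophage markers, 1 rose against control 3-8. That was Wwp1, a ubiquitin ligase that is not particular to macrophages, with 2423, 9107, 6220 and 6613. Its log2 difference against control 3-8 went from 1.40 to 0.54 after the GC correction (adjusted p = 0.193 in limma). Mertk, a receptor for dying cells, had 79.1, 153, 190.5 and 150, which is the order of Cd163 without a call (log2 difference 1.08, adjusted p = 0.0586 in limma). The 6 genes of this and the previous paragraph all had control 3-8 as the lowest library, with control 3-12 within or above the range of the muHuR-KO libraries.

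No gene passed among 9 further lists. In the CSF axis, Csf2rb, a receptor chain shared by several cytokines, had 59.6, 82.8, 91.9 and 95.0 in controls 3-8 and 3-12 and muHuR-KO 1-9 and 3-9, and Il34, the other ligand of the CSF1 receptor, had 134, 95.7, 106 and 147. Both muHuR-KO libraries were above both controls for Csf2rb and not for Il34. Tlr4, the lipopolysaccharide receptor, had 146, 279.6, 285 and 259, and Ctss, the protease that trims the invariant chain, had 63.5, 79.1, 122 and 70.9. Ncf1 and Cyba, further subunits of the oxidase, had 31.2, 38.6, 44.5 and 40.4, and 136, 66.2, 116 and 113. The oxidase genes were thus not ordered alike, Cybb and Ncf1 being lowest and Cyba highest in control 3-8.

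Several of the remaining lists had their highest median difference from the other 3 libraries in muHuR-KO 1-9. These were chemokines and receptors (0.65), monocyte markers (0.59), inflammatory cytokines (0.79) and Fc receptors with their kinases (0.24). The macrophage transcription factors were highest in control 3-12 (0.16). Single genes did not all follow their lists. Itga4, an integrin of monocytes, had 45.9, 84.6, 137 and 63.8, and Maf, a transcription factor of resident macrophages, had 238, 548, 581 and 317. Both were highest in muHuR-KO 1-9. S100a4 had 247, 129, 213 and 153, highest in control 3-8, and Cxcl9, an interferon-induced chemokine, 47.8, 86.5, 74.9 and 54.6, highest in control 3-12. Ptgs2, the inducible cyclooxygenase, had 2.93, 7.36, 21.5 and 13.5, with both muHuR-KO libraries above both controls. The control values were low, and the log2 difference from control 3-8 went from 2.20 to 1.36 after the GC correction.

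Genes of other cell types moved with the same libraries. The 8 fibroblast genes summed to 74972 normalized counts in muHuR-KO 1-9 and to between 40445 and 45069 in the other libraries, and their median difference from the other 3 libraries was 0.65 in muHuR-KO 1-9. The 6 tendon genes summed to 14718 in muHuR-KO 1-9 and to between 7554 and 9046 elsewhere. The 6 mast cell genes summed to 95.7 in control 3-8, 195 in control 3-12, against 226 in muHuR-KO 1-9 and 156 in muHuR-KO 3-9. Each of these lists was highest in muHuR-KO 1-9, as 26 of the 32 genes were, beside 21.2% of all genes. Each was lowest in control 3-8, as 11 of the 32 were, beside 34.9% of all genes. muHuR-KO 3-9, the lowest library for 16 of the 32, was not the lowest for any of these lists. The part of these cells in the results was not tested.

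Endothelial, dendritic cell and red blood cell genes were also highest in muHuR-KO 1-9, the red blood cell genes by little. The 8 endothelial genes had medians from -0.17 (muHuR-KO 3-9) to 0.26 (muHuR-KO 1-9), and the 4 dendritic cell genes had 0.45 in muHuR-KO 1-9 and -0.13 in muHuR-KO 3-9. Adipocyte and Schwann cell genes had other orders: the 6 adipocyte genes were highest in control 3-12 (median 0.84) and lowest in control 3-8 (median -0.85), and the 5 Schwann cell genes were highest in muHuR-KO 3-9 (median 0.78). The red blood cell genes summed to 4181 in muHuR-KO 1-9, 2218 in muHuR-KO 3-9 and 4077 and 3480 in controls 3-8 and 3-12, so they were lowest in the library where 16 of the 32 genes were lowest. Whether residual blood contributed was not tested. B cell genes were low, with Cd79b at 20.5, 11.0, 11.9 and 9.92.

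**Figure D5:**
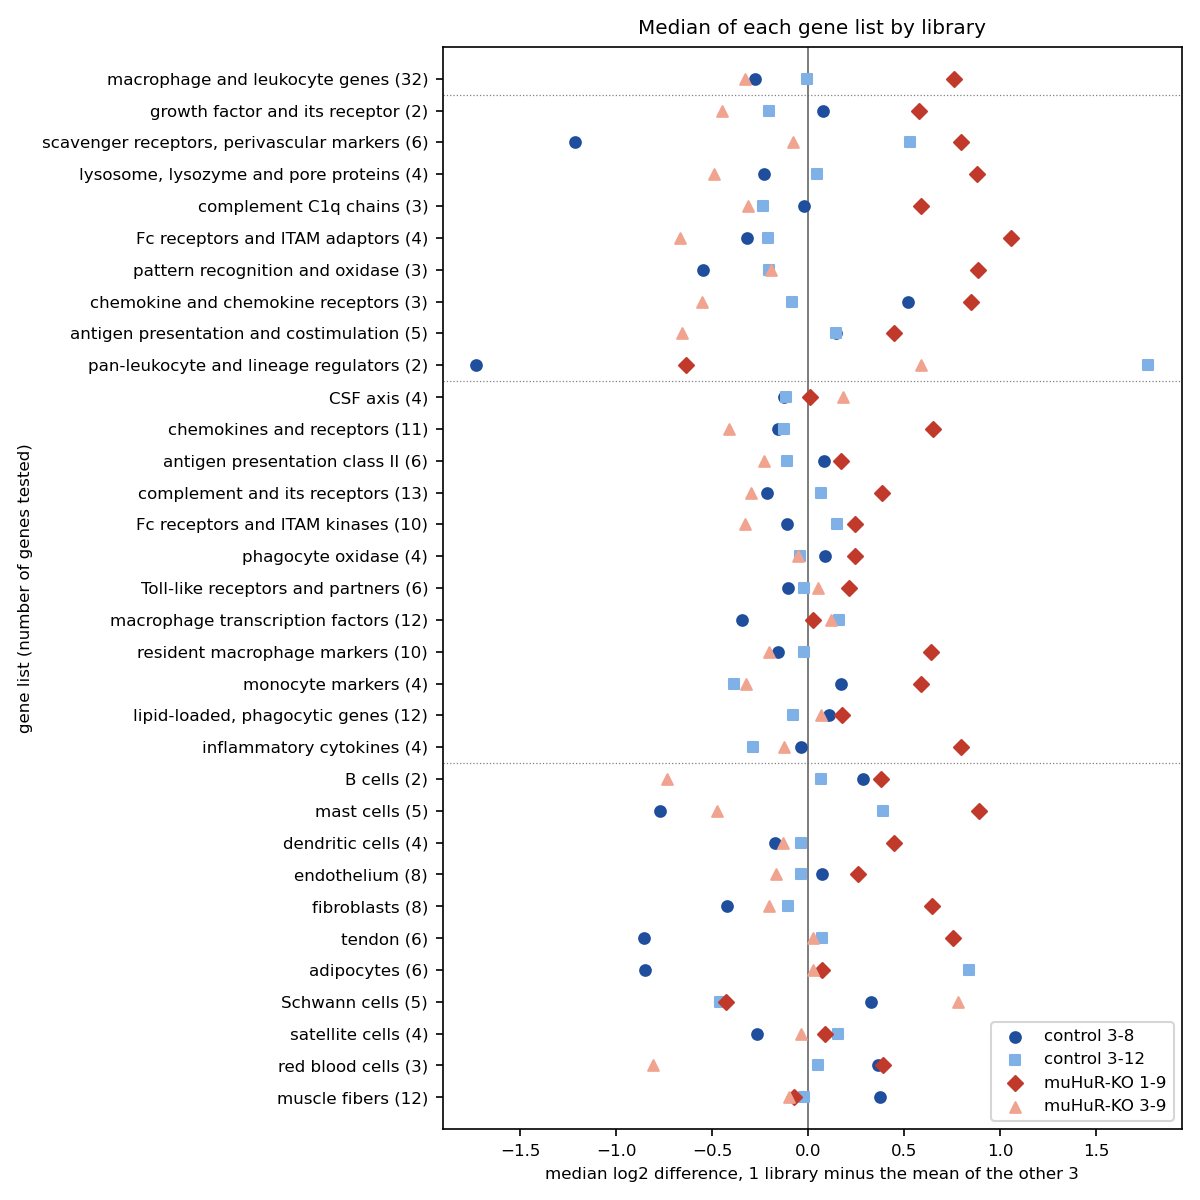
Median log2 difference of each library from the other 3 for the 32 genes, for their roles, for the pathway lists and for markers of other cells, with the number of genes tested in parentheses. The diamond of muHuR-KO 1-9 is rightmost for the 32 genes (0.76), fibroblasts (0.65) and tendon (0.75). The circle of control 3-8 is leftmost for the scavenger receptors (-1.21) and for the 2 tested pan-leukocyte and lineage regulators (-1.73).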

How the data were processed

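Total RNA of the soleus of 2 muHuR-KO and 2 control mice was sequenced as 4 libraries, and the labels gave each its group. For the deposited signal columns, the authors used TopHat2 2.0.10 for alignment (GRCm38, mm10), took gene counts with HTSeq 0.6.1 and scaled them by DESeq2 size factors, which makes them normalized counts. The annotation and the strand setting are not given in the sources used here. The columns of the authors' own comparison (means, fold changes, errors and p-values) were not used. Dividing by each library's step gave whole reads within 0.01 for 100% of values. The totals were 25767295 (control 3-8), 13301715 (control 3-12), 30362871 (muHuR-KO 1-9) and 33348893 (muHuR-KO 3-9).

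Genes with a mean of at least 10 were fitted as log2(normalized count + 1) with limma 3.58.1 (R 4.3.3, eBayes with a trend), with Benjamini-Hochberg adjustment over 13287 genes and a threshold of 0.05. Fold changes on this scale understate those of low genes. Each library is 1 mouse. Against 1 control the fit had 1 residual degree of freedom. Coordinates, exon length and GC content came from GENCODE M21 (GRCm38).

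The members and lists were chosen with earlier results of these data known. The named genes are Elavl1, all 34 members, up to 2 genes of smallest p against control 3-8 from each pathway list and the gene of highest mean from each list of other cells. Alternatives were DESeq2 1.42.0 and edgeR 4.0.16 on the reads, TMM factors, pseudocounts of 0.5 and 5, no filter or a minimum mean of 50, no trend, loess corrections (span 0.4) for GC content and exon length, and leaving out each library. The fits were tested on simulated data, and 1 gene of a pathway list is not reported here.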

Additional observations from a re-analysis of the deposited data

How the results depend on the processing

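Against control 3-8, the count of 2 genes past the threshold was 0 without a filter on low values, 0 under DESeq2, 0 without a trend, 0 after the exon length correction and 1 after the GC content correction. It was 2 or 3 under the other alternatives. Of all genes, 0 passed there without a filter or without a trend, and 1 after the exon length correction. Control 3-8 against the other 3 libraries gave 4 genes, and 0 without a filter, 2 under edgeR, 1 after the GC content correction and 1 after the exon length correction. Leaving out 1 library gave 2 to 7 there, 0 to 2 for muHuR-KO against both controls, 0 to 1 for control 3-12 against the rest and 0 to 1 for muHuR-KO 1-9 against the rest. The 7 came without muHuR-KO 3-9, and the 2 against both controls came without control 3-12. Both came with calls across all genes. Leaving out control 3-12 leaves only control 3-8, for which the share of all genes is given above. Against control 3-12, the GC content correction gave calls across all genes, Spi1 among them, where limma without the correction gave none. The causes were not tested. No paired analysis was possible because the groups share only 1 of the numbers in the mouse labels, the first number 3. The median over the genes moved from -0.09 to 0.75 against both controls, from -0.18 to 0.81 against control 3-8 and from -0.47 to 0.57 against control 3-12 when 1 muHuR-KO library was left out. With 2 mice a group, and few reads for Siglec1, Msr1, Cd14, Trem2 and Aif1, only large differences can be seen.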

Other observations

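Markers of tissue around the fibers also differed between the libraries, named here after their values were seen. Of 6 tendon genes, 5 had a positive log2 difference of muHuR-KO from control 3-8, past the threshold or not, beside 47.2% of all genes. The median was 0.93 over the 6 and -0.04 over all genes. Tnmd, or tenomodulin, had 312 normalized counts in control 3-8, 464 in control 3-12, against 783 in muHuR-KO 1-9 and 529 in muHuR-KO 3-9. Mkx, a transcription factor of tendon, had 27.3, 71.7, 84.5 and 65.9 in the same order, and Comp, a matrix protein of tendon and cartilage, had 126, 256, 263 and 286. Tnmd and Comp had both muHuR-KO libraries above both controls, as 9.57% of all genes did. So did Thbs4, a matrix protein of tendon, with 4195, 3672, 7877 and 4694. None of the 6 passed against both controls or against control 3-12.

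Of 6 adipocyte genes, Lep, which encodes leptin, rose against control 3-8, with 12.7, 114, 59.3 and 63.8 normalized counts in controls 3-8 and 3-12 and muHuR-KO 1-9 and 3-9. Of 12 fiber genes, Myh1, the myosin of fast type IIX fibers, did, with 54545, 229800, 152190 and 158080. In both, the muHuR-KO libraries lay between the controls. The values of these tendon, adipocyte and fiber genes are not corrected for GC content.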
